A study of Bos taurus with 28 samples.

Results

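The genes examined here encode the nuclear subunits of complexes II, III and IV of the mitochondrial respiratory chain and of ATP synthase (complex V), in the liver of cows given estradiol-17β, progesterone or both. Members were probe sets, groups of short probes for 1 transcript, with exactly 1 annotated symbol of the SDHA to SDHD, UQCR, CYC1, CYCS, COX4 to COX8, ATP5 or ATPIF1 families. When a gene had several, the probe set with the highest mean log2 signal over the 28 arrays stood for it. This gave 43 genes (53 probe sets) of 9155 named genes on the array, with 4 in complex II, 9 in complex III, 13 in complex IV and 17 in complex V. CYCS, COX6B1, COX4I2 and COX8C were not analysed here.

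All cows were ovariectomized, non-lactating Holsteins, so that every group, controls included, lacked ovaries. Their age is not given in the sources used here. According to the methods, 8 cows passed through a replicated Latin square, so that 1 cow gave several of the 28 liver biopsies. There were 7 arrays without hormone (CO), 7 after 14 days with an ear implant of estradiol-17β (E2T), 7 with vaginal progesterone inserts (P4T) and 7 with the implant and the inserts together (E2P4T). The labels number the arrays of a group from 1 to 7 without giving the cow or the period, and they call the progesterone of P4T intradermal in one field and vaginal in another. Precision is limited by the 7 arrays of a group. In a biopsy fewer cells of a type and less RNA per cell cannot be told apart.

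Complex II oxidizes succinate to fumarate and hands the electrons to ubiquinone. Complex III passes them from ubiquinol to cytochrome c, and complex IV passes them on to oxygen. Complexes III and IV pump protons across the inner mitochondrial membrane, and ATP synthase lets them flow back to make ATP, which the liver spends on gluconeogenesis, urea synthesis and protein secretion. The catalytic core of complex IV and a few subunits of complexes III and V are encoded in mitochondrial DNA and are not among the members, whereas complex II is encoded in the nucleus alone.

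A pair of arrays stood apart from the rest, and 2 others did so in part. The labelled tissue was checked with 18 measured genes of a list of 20 hepatocyte markers, whose mean log2 signal was 15.35 to 15.86 in CO, 14.99 to 15.48 in E2T and 14.90 to 15.62 in P4T. In E2P4T it was 14.86 to 15.69 on 6 arrays and 10.10 on number 5. On E2P4T number 5, 16 of the 18 hepatocyte genes lay below the range of the 26 arrays other than this one and P4T number 4, against 14.2% of all probe sets tested, among them APOA1 at 6.82 against 13.06 to 14.71. On the same array 4 of 5 measured kidney markers (of a list of 11) lay above that range, with a mean of 10.27 against 4.45 to 7.76, but so did 40.1% of all probe sets. Above it there also lay 3 of 4 adipocyte, 3 of 4 cholangiocyte and 3 of 6 endothelium markers, whereas 4 of 5 leukocyte and Kupffer cell markers lay below it. E2P4T number 5 therefore goes against its liver label. The hybridisation spikes, bacterial and phage transcripts added to each sample, averaged a log2 signal of 17.07 on P4T number 4, 18.06 on E2P4T number 5, 16.02 on CO number 3 and 15.18 on E2T number 3, against 12.71 to 14.65 on the other 24. The hepatocyte mean was 15.31 on P4T number 4, 15.35 on CO number 3 and 15.48 on E2T number 3, within the range of the rest. Gene by gene, however, 4 of the 18 hepatocyte markers on P4T number 4 lay below the range of the 26 other arrays and 3 above it, against 12.9% and 31.2% of all probe sets. Adipocyte markers on that array averaged 7.96 against 3.84 to 6.99 on the 26, and cholangiocyte markers 9.64 against 8.10 to 9.60. Above their own ranges lay 3 of 4 adipocyte and 1 of 4 cholangiocyte markers, against 31.2% of all probe sets. The means of the kidney, endothelium, stellate and striated muscle lists lay within their ranges. Results are given with all 28 arrays and again without P4T number 4 and E2P4T number 5. This pair was named from the values of these same data. CO number 3 and E2T number 3, also with high spikes, were kept.

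With all arrays, most members of complexes II, III and V had a higher mean signal in E2T and in E2P4T than in CO, but no member passed the test after adjustment. ATP5MC3, a c subunit of ATP synthase, was at 0.67 (standard error 0.30) in E2T and 0.68 in E2P4T on the log2 scale, and UQCRB, a small subunit of complex III, at 0.81 (standard error 0.35) in E2T. All 43 members passed the filter on low signals, a highest signal of at least 350 on any array. An adjusted p under 0.05 (limma, adjusted over 18775 probe sets) was found for 0 members and for 0% of all probe sets in each of the comparisons with CO, between treatments and in the interaction, and the lowest adjusted p of a member was 0.87 with E2T, 1 with P4T and 0.93 with E2P4T.

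At an unadjusted p under 0.05, 5 of 43 members were higher in E2T (UQCRB, COX7C, ATP5F1E, ATP5MC3 and ATP5PD), against 1.45% of all probe sets, and 2 were lower (COX6B2 and COX8B), against 3.98%. In P4T 0 members were higher, against 0.943% of all probe sets, and 1 was lower (COX6B2), against 1.84%. In E2P4T 5 were higher (COX7A2, COX7C, ATP5MC3, ATP5PD and ATP5PF), against 2.17%, and 0 were lower, against 2.74%. The 3 comparisons share the 7 CO arrays. By the F test over the 3 treatments, 1 member (COX6B2) had an unadjusted p under 0.05, against 2.14% of all probe sets. The 7 members at this threshold in E2T became 2 without CO number 3 or without E2T number 4, 3 without E2T number 2, and 4 without E2T number 1, 6 or 7. The 5 in E2P4T became 0 without CO number 3, 1 without E2P4T number 3, 2 without E2P4T number 1, 4 or 5, 3 without CO number 2 and 8 without P4T number 4. The 1 in P4T became 10 without P4T number 4, 3 without CO number 1 and 2 without CO number 4 or P4T number 7. The calls over all 18775 probe sets also moved with the arrays used. Without P4T number 4 and E2P4T number 5 they rose from 1021 to 1919 in E2T, from 522 to 1539 in P4T and from 922 to 1783 in E2P4T. Those with 1 array left out are not given, so the members' counts there are not read as a result about the members.

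The log2 fold change is the difference between group means of log2 signal, and its median was 0.20 over the 43 members in E2T, 0.04 in P4T and 0.28 in E2P4T. Over all probe sets tested it was -0.10, -0.03 and -0.02. Of the 43 members, 34 lay above 0 with E2T, 24 with P4T and 38 with E2P4T, whereas 40.2%, 46.3% and 48.3% of all probe sets lay above 0. Hepatocyte markers lay the other way, with 2 of 18 above 0 in E2T (median -0.22), 2 in P4T (median -0.19) and 1 in E2P4T (median -0.999), or 3 in E2P4T (median -0.27) without P4T number 4 and E2P4T number 5. The spikes averaged a log2 signal of 14.34 in CO, the highest of the groups, and 13.71, 14.04 and 14.29 in the treatments. The part of either in the members' differences was not tested. Over the 1768 tested probe sets with a mean log2 signal of at least 12, a background chosen after the data were seen, the medians were 0.07, 0.02 and -0.02. Another scaling moved the median of all probe sets in E2T from -0.10 to 0.03 (quantile normalization) or 0.05 (median centring). With it the calls over all probe sets in E2T went from 273 higher and 748 lower to 393 and 377 or to 461 and 525, and those in P4T from 177 and 345 to 340 and 253 under quantile normalization. The members' calls in E2T were 5 higher and 2 lower with the deposited scaling, 2 and 1 after quantile normalization and 4 and 1 after median centring. Those in E2P4T were 5, 5 and 0 higher, next to 408, 582 and 343 higher and 514, 510 and 531 lower over all probe sets.

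**Figure D1:**
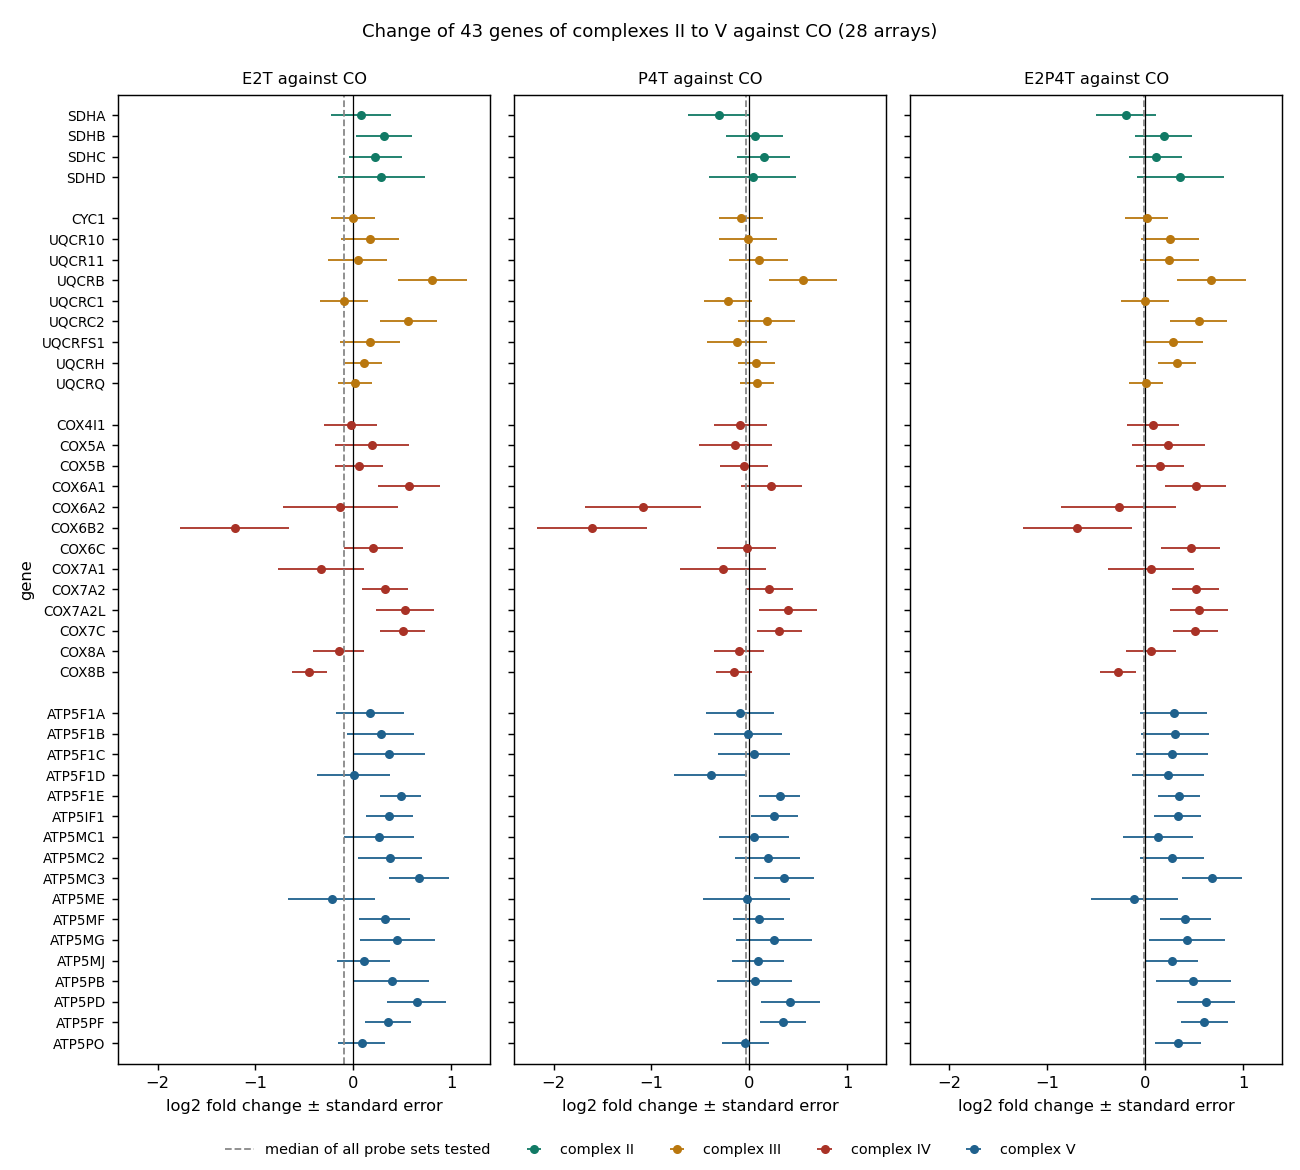
Log2 fold change against CO (horizontal axis, points, with bars of ± 1 standard error) of the 43 genes (vertical axis, grouped and coloured by complex) in E2T, P4T and E2P4T, from 28 arrays. Most genes of complex V lie to the right of 0 in E2T and E2P4T, COX6B2 lies farthest to the left at -1.21 and -1.60 in E2T and P4T, and the dashed line marks the median of all probe sets tested (-0.10, -0.03 and -0.02).

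Taken complex by complex with all members counted, complex V had the highest medians in E2T and E2P4T and complex IV the lowest in E2T and P4T. In complex II the median log2 fold change with E2T was 0.26, with P4T 0.04 and with E2P4T 0.14, with all 4 genes above 0 in E2T. Complex III had 0.10, 0.07 and 0.26, with 7, 5 and 9 of 9 genes above 0. Complex IV had 0.06, -0.09 and 0.15, with 7, 4 and 10 of 13 genes above 0. Its medians count the dim probe sets of COX6A2 and COX6B2, which lay below 0 in each treatment. COX6A2 was tested through a high value on CO number 3 alone, so its place below 0 is not read as a decrease. Without them the middle gene in E2T is COX5A, at 0.19, above the median of complex III. In P4T it is COX5B, at -0.05, still the lowest. Complex V had 0.35, 0.09 and 0.33, with 16, 12 and 16 of 17 genes above 0. The members of a complex share the arrays and are not independent replicates. With quantile normalization the complex II median in P4T was -0.03, and the other 11 medians kept their sign under both scalings. Leaving out single arrays moved the P4T medians between -0.10 (without CO number 3) and 0.33 (without P4T number 4) in complex II, between -0.06 (without CO number 6) and 0.16 (without P4T number 4) in complex III, between -0.19 (without CO number 6) and 0.06 (without P4T number 4) in complex IV, and between 0.02 (without P4T number 5) and 0.39 (without P4T number 4) in complex V. With E2T the same step gave 0.09 (without CO number 3) to 0.47 (without E2T number 3) in complex II and 0.00 (without CO number 3) to 0.20 (without CO number 5) in complex III. In complex IV it gave -0.07 (without CO number 6) to 0.17 (without CO number 2), and in complex V 0.14 (without CO number 3) to 0.46 (without E2T number 3). With E2P4T it gave 0.03 (without CO number 3) to 0.26 (without CO number 5) in complex II and 0.08 (without E2P4T number 5) to 0.38 (without E2P4T number 6) in complex III. In complex IV the bounds were 0.02 (without CO number 6) and 0.27 (without CO number 2), and in complex V 0.21 (without CO number 3) and 0.42 (without E2P4T number 2). Complex IV in E2T and complexes II, III and IV in P4T thus had medians on both sides of 0.

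The mean log2 signal over the members of a complex describes each array. For complex II it was 13.15 ± 0.46 (SD, n = 7 arrays) in CO, whereas E2T had 13.37 ± 0.48, P4T 13.13 ± 0.82 and E2P4T 13.26 ± 0.36. For complex III it was 12.52 ± 0.29, 12.72 ± 0.33, 12.58 ± 0.45 and 12.78 ± 0.34. For complex IV it was 12.20 ± 0.31, 12.20 ± 0.16, 12.01 ± 0.32 and 12.34 ± 0.39, and for complex V 13.10 ± 0.37, 13.40 ± 0.37, 13.21 ± 0.63 and 13.45 ± 0.27. The complex IV mean gives the dim probe sets of COX6A2 and COX6B2 the same weight as the bright ones. Their log2 fold changes were -0.13 and -1.21 in E2T, -1.08 and -1.60 in P4T, and -0.27 and -0.70 in E2P4T. No complex IV mean was made without them. Each treatment's mean lay within 1 SD of CO (the SD of the 7 CO arrays) in every complex, and the groups overlapped. The lowest array of E2T was number 3 and that of P4T number 4 in all 4 complexes, and CO number 3 was the lowest of CO in complexes II, III and V. These are arrays with high spikes, and the part of the spikes in the levels was not tested. E2P4T number 5, with the highest spikes of all, was the highest array in complexes III, IV and V at 13.36, 13.14 and 13.81, and the next to lowest of its group in complex II at 12.76.

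**Figure D2:**
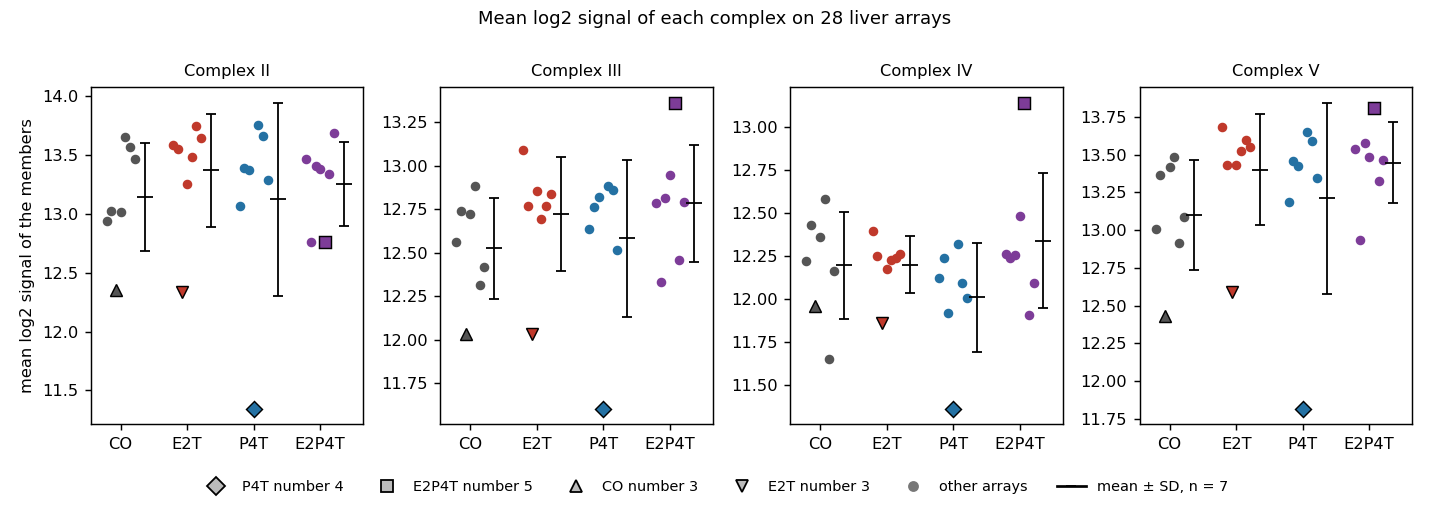
Mean log2 signal (vertical axis) over the members of complexes II, III, IV and V on each of 28 arrays, by group (horizontal axis), with bars for the mean and SD (7 arrays); the 4 arrays with the highest hybridisation spikes have their own symbols. P4T number 4 is the lowest array in every panel (11.34, 11.60, 11.36 and 11.81), and E2P4T number 5 is the highest in complexes III to V.

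In complex II no gene had an unadjusted p under 0.05 in a comparison with CO. SDHA, the flavoprotein that oxidizes succinate, had a lowest, median and highest log2 signal of 12.63, 13.18 and 13.88 in CO, 12.65, 13.21 and 13.99 in E2T, 11.23, 13.17 and 13.91 in P4T and 12.78, 12.88 and 13.61 in E2P4T. Its low value in P4T was array number 4, and the groups overlapped, with log2 fold changes of 0.08, -0.31 and -0.20 (standard error 0.31). SDHB, the iron-sulfur subunit, had 12.16, 12.81 and 13.57 in CO, 11.72, 13.18 and 13.60 in E2T, 11.27, 12.90 and 13.43 in P4T and 12.16, 13.06 and 13.16 in E2P4T. Its log2 fold changes were 0.31, 0.05 and 0.19 (standard error 0.29). SDHC and SDHD anchor the enzyme in the membrane. The log2 differences of SDHC from CO were 0.22, 0.15 and 0.10 (standard error 0.27). SDHD had 0.29, 0.03 and 0.35 (standard error 0.44), and its residual SD of 0.92 was the widest of the complex. The log2 signal of SDHD was 9.87 on P4T number 4 against 11.34 to 13.81 on the 26 other arrays.

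In complex III, UQCRB and UQCRC2 had the largest differences from CO. UQCRB, a small subunit beside the ubiquinone site, had a lowest, median and highest log2 signal of 10.97, 11.51 and 12.98 in CO, 11.32, 12.41 and 13.62 in E2T, 11.10, 12.11 and 13.01 in P4T and 11.47, 12.70 and 12.84 in E2P4T. The highest CO array, number 1, lay above 4 of 7 E2T arrays, and 5, 6 and 6 arrays of the treatments lay above the CO mean. Against CO the difference came to 0.81, 0.55 and 0.67 (standard error 0.35; limma adjusted p = 0.87, 1 and 0.93). The other probe set of UQCRB, with a highest signal of 514, stood at -0.06, 0.46 and 0.41 (standard error 0.35).

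UQCRC2, a core protein of complex III, had 11.29, 11.77 and 12.97 in CO, 11.71, 12.70 and 12.97 in E2T, 10.60, 12.20 and 12.98 in P4T and 11.68, 12.62 and 12.94 in E2P4T. The log2 differences from CO stood at 0.56, 0.18 and 0.54 (standard error 0.29), with 6 of 7 arrays of each treatment above the CO mean. Its dimmer probe set differed in sign, at -0.37, -0.17 and -0.29 (standard error 0.28). The highest value of that probe set lay on CO number 3 (12.01), E2T number 3 (11.71), P4T number 4 (12.22) and E2P4T number 5 (11.39) in the respective groups, which are the arrays with the highest spikes. On 3 of these arrays, all but E2P4T number 5, the brighter probe set had its group's lowest value (11.29, 11.71 and 10.60). The part of the spikes in either probe set was not tested.

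UQCRH, the hinge protein that holds cytochrome c1 to cytochrome c, had 13.16, 13.63 and 13.72 in CO, 13.17, 13.62 and 13.84 in E2T, 12.98, 13.67 and 13.72 in P4T and 13.45, 13.65 and 14.72 in E2P4T. Its log2 fold change was 0.32 (standard error 0.19) in E2P4T with the value of 14.72 on number 5, and 0.17 without that array and P4T number 4. The other members were UQCRC1 (a core protein), CYC1 (cytochrome c1), UQCRFS1 (the Rieske iron-sulfur protein), UQCRQ, UQCR10 and UQCR11. Their log2 fold changes lay between -0.21 (UQCRC1 in P4T) and 0.28 (UQCRFS1 in E2P4T). UQCRQ had the narrowest spread of the complex, a residual SD of 0.28, and its fold changes were 0.02, 0.08 and 0.00 (standard error 0.17).

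In complex IV, COX7C, COX7A2 and COX7A2L lay above CO in the 3 treatments, and COX6B2 and the brighter probe set of COX8B lay below it. COX7C, a subunit of the outer ring, had a lowest, median and highest log2 signal of 13.52, 13.98 and 14.89 in CO, 14.12, 14.54 and 14.85 in E2T, 13.43, 14.33 and 14.67 in P4T and 14.23, 14.62 and 14.79 in E2P4T. All 7 arrays of E2T and all 7 of E2P4T lay above the CO mean, although CO number 1 was higher than any of them. Against CO the difference came to 0.51, 0.31 and 0.51 (standard error 0.23; limma adjusted p = 0.87, 1 and 0.93). COX7A2L, which helps to join complexes III and IV into supercomplexes, had 0.52, 0.39 and 0.55 (standard error 0.29). COX5A and COX5B, which flank the catalytic core, lay at 0.19, -0.14 and 0.23 (standard error 0.38) and at 0.06, -0.05 and 0.15 (standard error 0.24). COX6C had 0.20, -0.03 and 0.46 (standard error 0.30). Its other probe set, whose highest signal of 350.4 only just passed the filter, stood at -0.64, -0.99 and -0.55 (standard error 0.46). That probe set passed on CO number 7 alone, so its place among those tested rests on a high CO value. Its values below CO are therefore not read as a decrease.

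COX6B2, the testis form of subunit 6B, had the lowest F test p of the members. Its lowest, median and highest log2 signal was 6.62, 8.25 and 8.81 in CO, 5.20, 6.97 and 8.47 in E2T, 3.83, 6.85 and 8.60 in P4T and 6.59, 7.21 and 8.34 in E2P4T. In every treatment 6 of 7 arrays lay below the CO mean, and the exceptions were E2T number 3, P4T number 4 and E2P4T number 5, each the highest of its group. The log2 differences from CO stood at -1.21, -1.60 and -0.70 (standard error 0.56; limma adjusted p = 0.87, 1 and 0.94). The probe set was dim, with a highest signal of 450.3 on the linear scale, close to the filter of 350.

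Several subunits of complex IV exist as a form found in liver and most tissues and a form found in heart and skeletal muscle. The liver forms COX6A1 and COX7A2 had positive differences, whereas COX8A had differences near 0. COX6A1 had a lowest, median and highest log2 signal of 12.08, 12.60 and 13.22 in CO, 12.06, 13.19 and 13.73 in E2T, 10.82, 12.99 and 13.52 in P4T and 12.15, 13.07 and 13.91 in E2P4T. In each treatment 6 of 7 arrays lay above the CO mean, with log2 fold changes of 0.57, 0.22 and 0.51 (standard error 0.31). COX7A2 had 12.58, 13.25 and 13.96 in CO, 13.20, 13.66 and 13.88 in E2T, 12.40, 13.57 and 13.88 in P4T and 13.30, 13.79 and 14.37 in E2P4T. All 7 E2P4T arrays lay above the CO mean, and the fold changes were 0.32, 0.21 and 0.51 (standard error 0.24; limma adjusted p = 0.93 in E2P4T). COX8A had -0.15, -0.11 and 0.06 (standard error 0.26), and COX4I1, the form of subunit 4 found in most tissues, had -0.03, -0.09 and 0.08 (standard error 0.27).

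Among the muscle forms, the brighter probe set of COX8B had a lowest, median and highest log2 signal of 12.44, 13.03 and 13.61 in CO, 12.41, 12.50 and 12.89 in E2T, 12.52, 12.76 and 13.40 in P4T and 12.40, 12.85 and 13.01 in E2P4T. All 7 arrays of E2T and of E2P4T lay below the CO mean, and the log2 differences from CO stood at -0.45, -0.16 and -0.28 (standard error 0.18; limma adjusted p = 0.87, 1 and 0.93). The dimmer probe set of COX8B had -0.52, 1.13 and 0.09 (standard error 0.88). The mean log2 signal was 12.81 for the brighter probe set, 6.19 for the dimmer one and 13.49 for COX8A, the liver form. Whether the brighter probe set measures the muscle form was not tested. COX7A1 had -0.33, -0.27 and 0.06 (standard error 0.44), and COX6A2, whose highest signal was 368.4, had -0.13, -1.08 and -0.27 (standard error 0.59). On E2P4T number 5, COX7A1 stood at 13.42 against 8.34 to 11.53 on the 26 other arrays, and the dimmer COX8B probe set at 11.63 against 3.81 to 8.12, whereas the brighter one was at 13.01, inside its range of 12.40 to 13.61. The mean of 7 measured striated muscle markers (of a list of 10) was 8.67 on that array and 6.66 to 8.91 on the others. Of the 7, 2 (MYH1 and MB) lay above their ranges and 0 below, whereas 40.1% of all probe sets lay above theirs on that array. The part of other tissues in these values was not tested. Without this array and P4T number 4 the log2 fold change of COX7A1 in E2P4T was -0.46 (standard error 0.31).

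**Figure D3:**
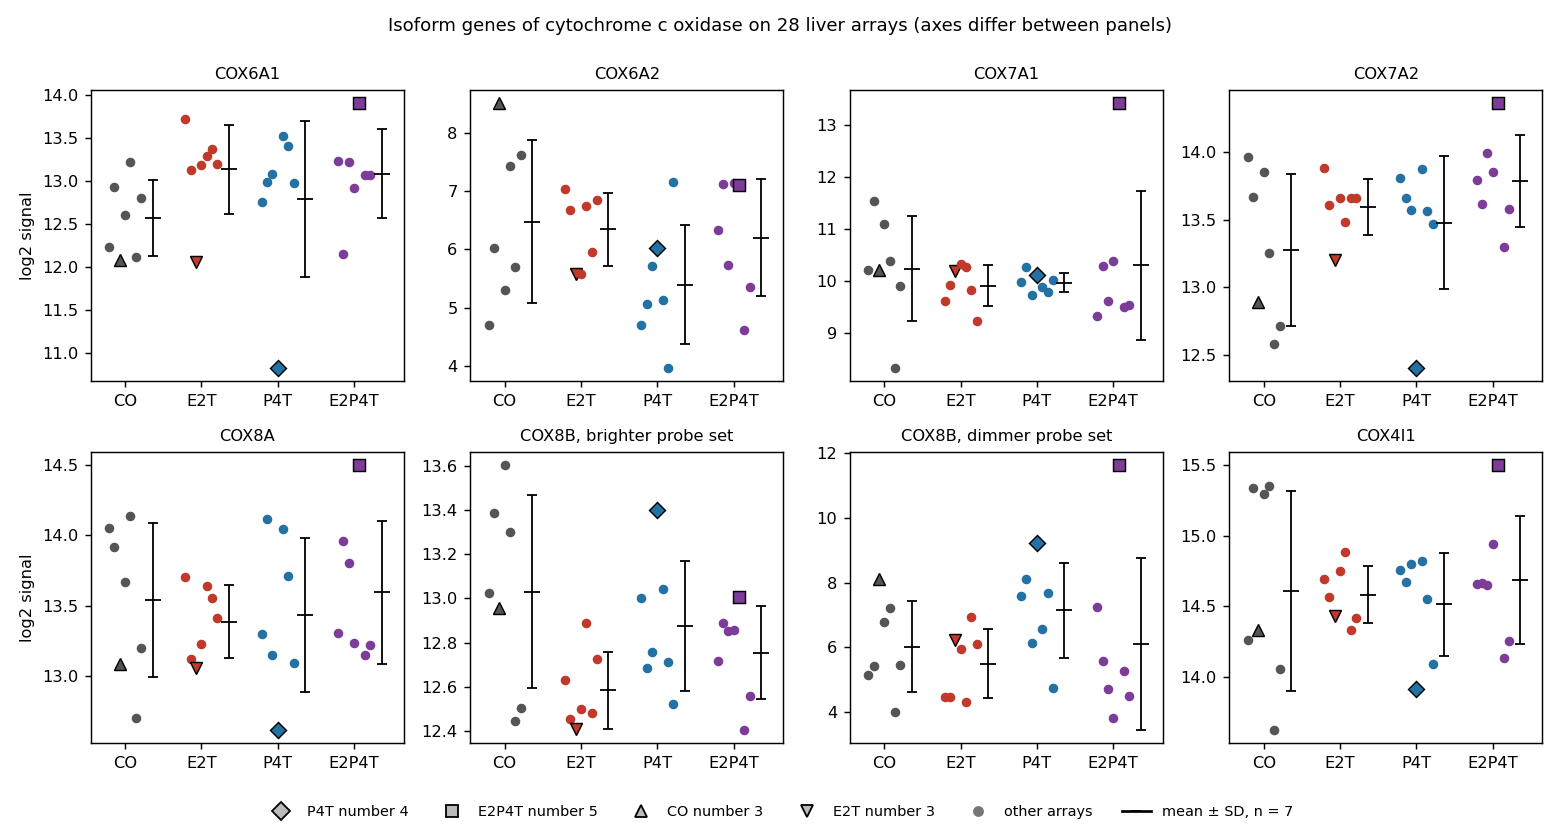
Log2 signal (vertical axes, which differ between panels) of the tissue isoform genes of cytochrome c oxidase on each of 28 arrays, by group (horizontal axis), with bars for the mean and SD (7 arrays) and the 4 arrays of highest spikes as separate symbols. E2P4T number 5 stands farthest above the other arrays for COX7A1 (13.42) and for the dimmer COX8B probe set (11.63).

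In complex V, the c ring, the peripheral stalk and the ε subunit held the genes at an unadjusted p under 0.05. The c ring turns as protons pass, and 3 genes encode the same mature c subunit with different import signals. ATP5MC3 had a lowest, median and highest log2 signal of 11.86, 12.88 and 13.00 in CO, 11.95, 13.50 and 13.80 in E2T, 11.25, 13.32 and 13.68 in P4T and 12.42, 13.49 and 13.82 in E2P4T. In E2T and in E2P4T 6 of 7 arrays lay above the highest CO array, and in P4T 5 did. The arrays below were E2T number 3, E2P4T number 2 and, in P4T, numbers 1 and 4. Against CO the difference came to 0.67, 0.35 and 0.68 (standard error 0.30; limma adjusted p = 0.87, 1 and 0.93). The sister genes had smaller ones, ATP5MC1 at 0.26, 0.05 and 0.13 (standard error 0.36) and ATP5MC2 at 0.38, 0.19 and 0.27 (standard error 0.33). The differences between the 3 genes were not tested.

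The peripheral stalk holds the catalytic head still while the rotor turns. Its subunit d, ATP5PD, had 11.50, 13.38 and 13.57 in CO, 12.65, 13.68 and 14.01 in E2T, 11.79, 13.71 and 13.92 in P4T and 13.06, 13.70 and 13.84 in E2P4T. The highest CO array lay below 6 of 7 E2T arrays, 5 of P4T and 5 of E2P4T, and the low value in CO was number 3. The log2 differences from CO stood at 0.65, 0.42 and 0.62 (standard error 0.30; limma adjusted p = 0.87, 1 and 0.93). Coupling factor 6, ATP5PF, had 11.73, 12.68 and 12.97 in CO, 12.27, 12.86 and 13.59 in E2T, 11.75, 13.15 and 13.42 in P4T and 12.83, 13.20 and 13.38 in E2P4T. All 7 E2P4T arrays lay above the CO mean and 6 above the highest CO array, and the log2 differences from CO stood at 0.35, 0.34 and 0.60 (standard error 0.24; limma adjusted p = 0.87, 1 and 0.93). Subunit b, ATP5PB, had 0.39, 0.06 and 0.49 (standard error 0.38), and ATP5PO, which ties the stalk to the head, had 0.08, -0.04 and 0.33 (standard error 0.24).

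Of the catalytic head and central stalk, ATP5F1A and ATP5F1B, the α and β subunits that make ATP, differed from CO by 0.17, -0.09 and 0.29 and by 0.28, -0.02 and 0.31 (standard error 0.35 for both). ATP5F1C, the γ shaft, had 0.36, 0.04 and 0.27 (standard error 0.37), and ATP5F1D, the δ subunit, had 0.01, -0.39 and 0.23 (standard error 0.37). The other probe set of ATP5F1D, with a highest signal of 633.8, stood at -0.93, -0.43 and -0.76 (standard error 0.50). ATP5F1E, the ε subunit, which was named after its values were seen, had 12.59, 13.54 and 13.84 in CO, 13.18, 13.88 and 14.09 in E2T, 13.14, 13.74 and 14.07 in P4T and 13.42, 13.63 and 14.01 in E2P4T. In E2T 5 of 7 arrays lay above the highest CO array, and the log2 differences from CO stood at 0.48, 0.31 and 0.34 (standard error 0.21; limma adjusted p = 0.87, 1 and 0.93). ATP5IF1, the inhibitor that stops the enzyme from running backwards, had 13.16, 13.95 and 14.37 in CO, 13.73, 14.10 and 14.36 in E2T, 12.72, 14.14 and 14.44 in P4T and 13.79, 14.01 and 14.43 in E2P4T, with fold changes of 0.37, 0.25 and 0.33 (standard error 0.24). All 4 groups overlapped.

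The small membrane subunits f and g (ATP5MF and ATP5MG) and the proteolipid ATP5MJ had log2 fold changes between 0.09 (ATP5MJ in P4T) and 0.45 (ATP5MG in E2T). Subunit e, ATP5ME, was the 1 gene of complex V below 0 in E2T and in E2P4T, at -0.22 and -0.11 (standard error 0.44). Its log2 signal was highest on CO number 3 (16.19), E2T number 3 (15.85) and P4T number 4 (16.64) within their groups, the arrays on which most other members were low.

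**Figure D4:**
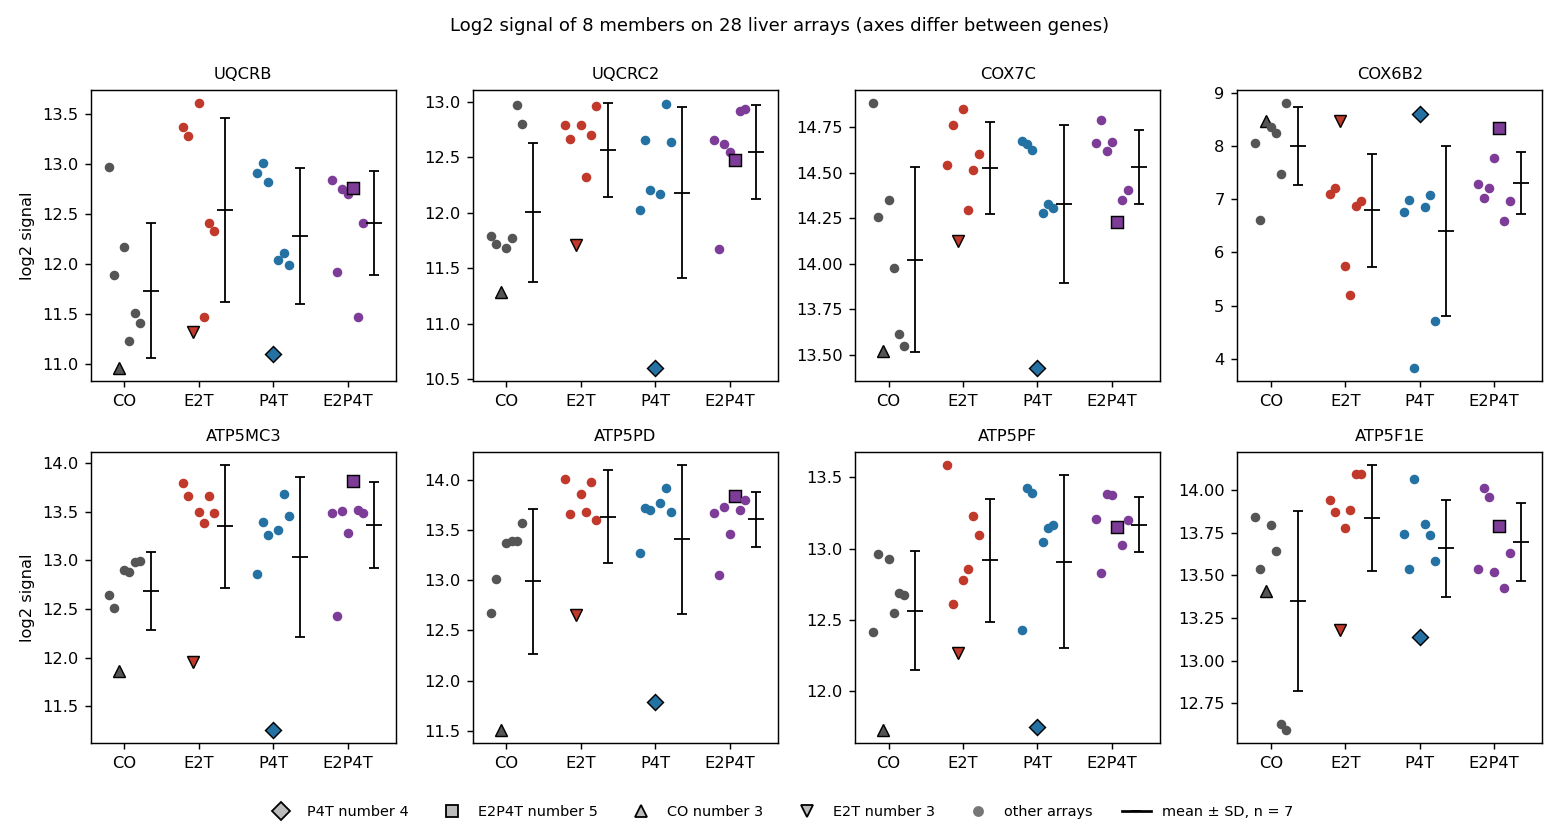
Log2 signal (vertical axes, which differ between genes) of UQCRB, UQCRC2, COX7C, COX6B2, ATP5MC3, ATP5PD, ATP5PF and ATP5F1E on each of 28 arrays, by group (horizontal axis), with bars for the mean and SD (7 arrays). For ATP5MC3, 6 of 7 arrays of E2T and of E2P4T lie above the highest CO array (13.00), and for every gene the range of CO overlaps that of each treatment.

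In a count over all members, 0 of 43 had every array of a treatment above or below every CO array. Among all probe sets tested, 0.117% did with E2T, 0.0213% with P4T and 0.032% with E2P4T.

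The treatments were also compared with each other. At an unadjusted p under 0.05, 0 members differed between E2T and P4T (1.44% of all probe sets), 0 between E2P4T and E2T (2.04%) and 0 between E2P4T and P4T (1.95%). The median log2 difference over the members was 0.20 for E2T against P4T, 0.07 for E2P4T against E2T and 0.22 for E2P4T against P4T, and without P4T number 4 and E2P4T number 5 it was -0.04, -0.01 and -0.06. The interaction, the change with both hormones beyond the sum of the single changes, had an unadjusted p under 0.05 in 1 member, against 2.99% of all probe sets. This was COX6B2, at 2.12 (standard error 0.79; adjusted p = 0.999 by limma), where both single treatments lay further below CO than the combined treatment.

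Without P4T number 4 and E2P4T number 5 35 of 43 members had a mean signal above CO in P4T, next to 34 in E2T and 33 in E2P4T. The median log2 fold change over the 43 members was 0.20 with E2T, 0.24 with P4T and 0.20 with E2P4T, against -0.10, -0.09 and -0.09 over all probe sets and 0.07, 0.11 and 0.10 over those with a mean log2 signal of at least 12. By complex, the medians in P4T were 0.33, 0.16, 0.06 and 0.39 for complexes II, III, IV and V, and those in E2P4T were 0.20, 0.08, 0.10 and 0.29. These fits keep CO number 3, the lowest CO array in complexes II, III and V, and E2T number 3. With all 4 arrays of highest spikes left out, the complex V median in E2P4T was 0.20, the lowest of 46 alternatives. In that setting 8 members had an unadjusted p under 0.05 by the F test, against 6.15% of all probe sets. An adjusted p under 0.05 was again found for 0 members. At an unadjusted p under 0.05, 9 members were higher in E2T (3.03% of all probe sets) and 2 lower (7.2%). In P4T 9 were higher (2.39%) and 1 lower (5.81%), and in E2P4T 6 were higher (2.99%) and 0 lower (6.51%).

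COX7C, ATP5MC3 and ATP5PD were among the higher members in each treatment. COX7C lay at 0.51 (standard error 0.18), 0.46 and 0.56 (standard error 0.19 for both), with adjusted p of 0.394, 0.595 and 0.487 by limma. ATP5MC3 had 0.67 (standard error 0.23), 0.65 and 0.60 (standard error 0.24 for both), and ATP5PD had 0.65, 0.69 and 0.58. UQCRB, COX6A1 and COX7A2L were among those in E2T and P4T at 0.81 and 0.75, at 0.57 and 0.55, and at 0.52 and 0.64. ATP5IF1, the inhibitor, had 0.37 and 0.47 in these treatments, and ATP5MG, named after its values were seen, had 0.66 in P4T. ATP5PF had 0.54 in P4T and 0.61 in E2P4T. UQCRC2 had 0.56 in E2T and 0.55 in E2P4T. COX6B2 had -1.21 (standard error 0.50), -1.97 and -0.87 (standard error 0.52 for both), with an adjusted p of 0.594 by limma in P4T. By the F test 5 members had an unadjusted p under 0.05, against 5.7% of all probe sets, and for the interaction 5 members did, against 4.01%. Of these, COX6B2 was at 2.32, and COX6A1, ATP5IF1, ATP5MC3 and ATP5PD were at -0.75, -0.56, -0.71 and -0.75 (limma adjusted p = 0.98), where the combined change was below the sum of the single changes.

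The spread in P4T narrowed when its number 4 was left out. The mean log2 signal in P4T was then 13.42 ± 0.25 (SD, n = 6 arrays) for complex II, 12.75 ± 0.14 for complex III, 12.12 ± 0.15 for complex IV and 13.44 ± 0.17 for complex V. In E2P4T without number 5 it was 13.34 ± 0.31, 12.69 ± 0.24, 12.21 ± 0.19 and 13.39 ± 0.24. The complex IV means again counted COX6A2 and COX6B2, whose log2 fold changes in P4T were -1.19 and -1.97. The ranges still overlapped those of CO in each complex.

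On P4T number 4, 26 of 43 members lay below the range of the 26 other arrays, against 12.9% of all probe sets, and 1 (ATP5ME) lay above it, against 31.2%. All 4 genes of complex II were below, with 4 of 9 in complex III, 7 of 13 in complex IV and 11 of 17 in complex V. COX5A was at 9.35 against 11.15 to 13.12, UQCRFS1 at 10.67 against 11.94 to 13.56 and ATP5F1D at 8.13 against 10.16 to 11.75. On E2P4T number 5, 18 members lay above the range, against 40.1% of all probe sets, and 0 below it, against 14.2%. These were 5 of 9 in complex III, 7 of 13 in complex IV and 6 of 17 in complex V, among them COX6C at 16.58 against 13.85 to 15.34 and UQCRH at 14.72 against 13.16 to 13.84. Complex II had 0 of 4 genes above on that array, with SDHC at 13.57 and SDHD at 11.75, the lowest of E2P4T.

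**Figure D5:**
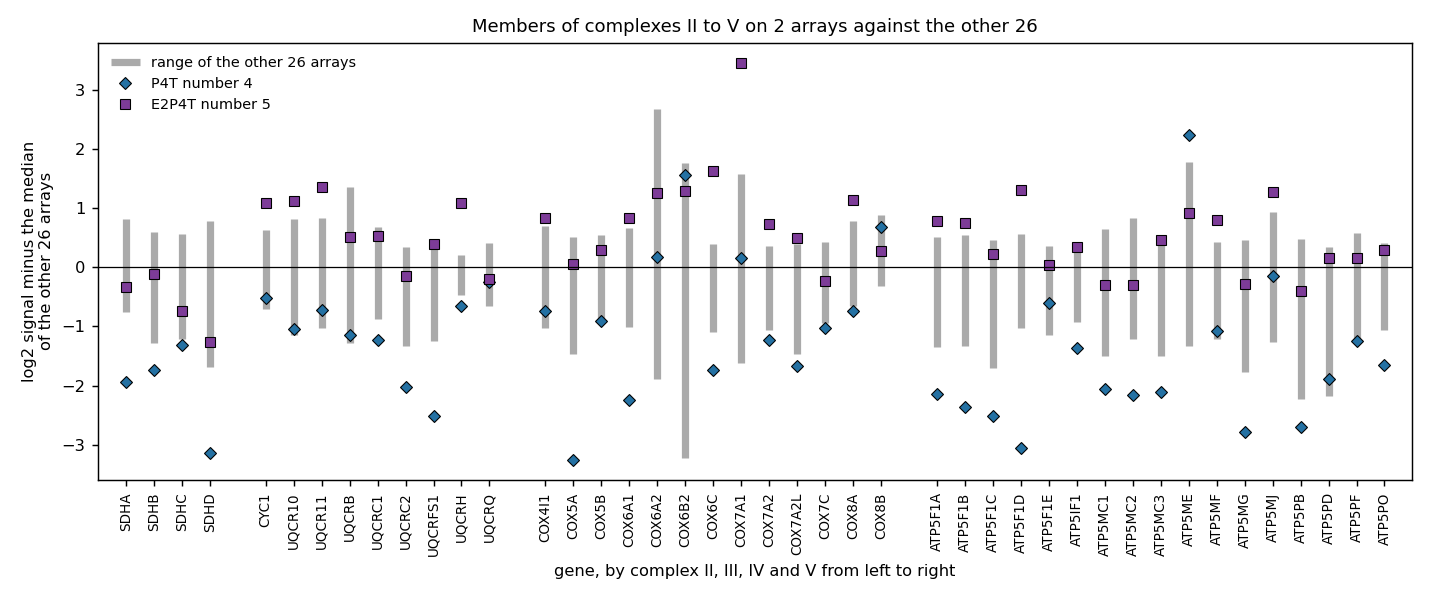
Log2 signal of each of the 43 genes (horizontal axis, by complex) on P4T number 4 (diamonds) and E2P4T number 5 (squares), as the difference from the median of the 26 other arrays (vertical axis), with grey bars for the range of those 26. On P4T number 4, 26 genes lie below the grey bar, against 12.9% of all probe sets tested. On E2P4T number 5, 18 genes lie above it, COX7A1 the farthest, against 40.1% of all probe sets.

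The other genes of oxidative phosphorylation were counted from fixed lists. A list of 37 measured genes was taken by the symbols NDUFA, NDUFB, NDUFC, NDUFS and NDUFV, with NDUFA4 and NDUFA4L2 among them. Most encode subunits of complex I, which oxidizes NADH. The list had a median log2 fold change of 0.20 with E2T, 0.08 with P4T and 0.22 with E2P4T. At an unadjusted p under 0.05, 4, 0 and 4 genes were higher and 0 lower. These were NDUFA1, NDUFB3 and NDUFB6 in both, with NDUFC1 in E2T and NDUFB1 in E2P4T, all named after their values were seen. NDUFA1 had 0.64 and 0.56 (standard error 0.24). Of all probe sets, 1.45%, 0.943% and 2.17% were higher at this threshold and 3.98%, 1.84% and 2.74% lower. On P4T number 4, 23 of the 37 lay below the range of the 26 other arrays, against 12.9% of all probe sets, and on E2P4T number 5, 14 lay above it, against 40.1%.

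Assembly factors of complexes II to V build the enzymes without being part of them. The 21 measured of a list of 38 had medians of 0.09, 0.02 and 0.14, with FMC1, which helps to assemble ATP synthase, higher in E2T at 0.58 (standard error 0.22) and COX15, which makes the heme of complex IV, lower in E2P4T at -0.53 (standard error 0.25), both at an unadjusted p under 0.05 and named after their values were seen. Each is 1 of 21, next to 1.45% of all probe sets higher in E2T and 2.74% lower in E2P4T. The 7 tested carriers and pores, which move phosphate and adenine nucleotides across the mitochondrial membranes, had 0.22, 0.10 and 0.27 with 0 genes at that threshold. The 8 measured transcription factors and mitochondrial regulators, PPARGC1A among them, had -0.03, 0.02 and -0.06, also with 0 genes.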

How the data were processed

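Liver mRNA of 28 biopsies was measured on the Affymetrix Bovine GeneChip. The authors deposited 1 signal intensity per probe set and array, on a linear scale, made with MAS 5.0, with each array scaled to a common target. The trimmed mean of the middle 96% of values was 1000.2 to 1000.41 on the arrays. Detection calls were not used here. The study left out outlying arrays of P4T and E2P4T, but the labels do not say whether they are among the 28, all of which entered the fit here. Other arrays of the study were not analysed here. No column of another series was present. Groups came from the sample labels.

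The log2 of each deposited signal was analysed as it stood. The 112 control probe sets were left out of the tests, and of 24016 others the 18775 with a highest signal of at least 350 were tested. The package limma 3.58.1 in R 4.3.3 (lmFit, then eBayes with trend) fitted the 4 groups together, with two-sided p-values adjusted by the Benjamini-Hochberg method over all probe sets tested. Scripts were tested on simulated data, and figures were drawn with matplotlib. Cow and period are not labelled, so the study's mixed model could not be run and p-values measure the spread between these arrays, some of which come from the same cow. Arrays were not duplicates (highest correlation 0.94).

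Symbols came from the array annotation, 13292 probe sets with exactly 1 symbol. The RefSeq table held the gene ID of 13263 of them and changed 0 symbols. The members and lists were chosen with earlier results of these data known. By the rule, named genes were UQCRB, COX6A1 and ATP5MC3, the 3 members of each complex (2 in complex II) with the lowest F test p, the tissue isoform genes of complex IV, the c subunit genes, the SDH genes, ATP5IF1, and genes whose probe sets differed in sign by more than their standard errors. Members outside this rule are given so that all 43 are accounted for, and they and the other genes named were chosen after their values were seen. Alternatives were other scalings, filters, variance models, array weights, replicate blocks, probe sets and arrays left out. Leaving out the 4 arrays of highest spikes and the background of bright probe sets were chosen after seeing the data. No sequence is printed.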

Additional observations from a re-analysis of the deposited data

Results flagged for a closer look

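Of 188 group values (a gene or a complex in 1 group of 7 arrays), 64 had 1 array whose gap to its nearest neighbour took up an unusually large part of the group's range. Chance gives this in about 1 in 20 groups, and the genes share the arrays, so that the values are not independent. P4T number 4 stood apart in 28 of them, E2T number 3 in 21, E2P4T number 2 in 7, E2P4T number 5 in 5 and CO number 3 in 3. All but E2P4T number 2 are arrays with the highest hybridisation spikes, and the part of the spikes was not tested.

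On P4T number 4 the mean log2 signal was 11.34 for complex II, 11.60 for complex III, 11.36 for complex IV and 11.81 for complex V. Low log2 signals on this array were those of SDHB (11.27) and SDHD (9.87) in complex II, and of UQCRC2 (10.60), UQCRFS1 (10.67) and UQCRH (12.98) in complex III. In complex IV they were those of COX5A (9.35), COX6A1 (10.82), COX6C (13.21), COX7A2 (12.40), COX7A2L (10.35) and COX7C (13.43). In complex V they were those of ATP5F1A (11.96), ATP5F1B (11.05), ATP5F1C (10.86), ATP5F1D (8.13), ATP5IF1 (12.72), ATP5MC1 (10.70), ATP5MC2 (10.40), ATP5MC3 (11.25), ATP5MG (11.30), ATP5PB (10.70), ATP5PD (11.79) and ATP5PO (11.92). ATP5ME stood apart on the high side, at 16.64.

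On E2T number 3 the mean log2 signal was 12.33 for complex II, 12.03 for complex III, 11.86 for complex IV and 12.59 for complex V. Low genes of complexes II to IV were SDHB (11.72), SDHC (13.08), CYC1 (11.06), UQCRFS1 (12.11), COX5A (11.59), COX6A1 (12.06) and COX7A2L (10.70). Those of complex V were ATP5F1A (12.75), ATP5F1C (12.14), ATP5F1E (13.18), ATP5MC1 (11.28), ATP5MC3 (11.95), ATP5MG (12.57), ATP5PB (11.80), ATP5PD (12.65) and ATP5PO (12.68). ATP5ME was again high, at 15.85. On CO number 3 the low genes were UQCRFS1 (11.94), ATP5MC3 (11.86) and ATP5PO (12.52).

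In E2P4T, number 2 was low for SDHB (12.16), UQCRC2 (11.68), UQCRFS1 (12.54), COX5A (11.76), ATP5F1C (12.02), ATP5MC1 (11.45) and ATP5MC3 (12.42). Number 5 was high for CYC1 (12.86), UQCRH (14.72), COX6C (16.58), COX7A1 (13.42) and ATP5MJ (14.93), and on this array the hepatocyte markers averaged 10.10 against at least 14.86 on every other array.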

How the results depend on the processing

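No member passed an adjusted p under 0.05 under any alternative run. Counts of members at an unadjusted p under 0.05 moved most, from 7 in E2T, 1 in P4T and 5 in E2P4T. Over all 18775 probe sets tested the counts were 1021, 522 and 922. With 1 array left out they ranged from 2 to 10 in E2T, 1 to 10 in P4T and 0 to 8 in E2P4T. Without P4T number 4 and E2P4T number 5 they were 11 in E2T and 10 in P4T, next to 1919 and 1539 of all probe sets. Without the 4 arrays of highest spikes, a choice made after seeing the data, they were 14 and 9. Quantile normalization gave 3 in E2T, median centring 0 in E2P4T and a filter on mean signal that kept the brighter 12008 probe sets 0 in P4T. Over all probe sets these settings gave 770, 874 and 281. Array weights gave 12 in E2T, 8 in P4T and 10 in E2P4T, with median log2 fold changes of -0.044 for complex III and -0.06 for complex IV in E2P4T. The mean over a gene's probe sets, and the choice of probe set by F test, each gave 2 in P4T. Arrays numbered 1 to 4 alone gave 4 in E2T and 1 in E2P4T. Those numbered 5 to 7 alone gave 7 in P4T, a complex IV median of 0.27 in P4T and a complex II median of -0.32 in E2P4T. A term for numbers 1 to 4 against 5 to 7 gave 8 in E2P4T. For the other settings in this paragraph the calls over all probe sets are not given. Their counts are therefore not read as a result about the members. The remaining 549 medians over complexes moved by less than the spread between arrays, but these medians are small and some turned direction. Out of 46 alternatives each, the complex II, III, IV and V medians in P4T turned in 7, 4, 6 and 1, that of complex IV in E2T in 5, and those of complexes II, III and IV in E2P4T in 1. Of those not given above, the farthest turned were -0.13 for complex V in P4T (arrays 1 to 4 alone) and -0.13 for complex IV in E2T (mean over a gene's probe sets). Single genes at an unadjusted p under 0.05 varied in size too, ATP5F1E in E2T from 0.05 to 1.07 and COX8B in E2T from -0.75 to -0.05. The causes were not tested.

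Nothing in the labels pairs arrays by number. Same-numbered arrays of different groups had correlations of their deviations from -0.21 to 0.32 (median 0.03, 14 of 42 pairs over 0.1), and 11 of 28 arrays correlated best with one of their own number. The replicate block gave 8 members in E2T, 1 in P4T and 8 in E2P4T. Its calls over all probe sets are not given, so these counts are not read as a result about the members. Members with dim probe sets, COX6A2 and COX6B2, had highest signals of 368.4 and 450.3, near the minimum of 350. COX6A2 reached that minimum on CO number 3 alone.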
